A study of Mus musculus with 3 samples.

Results

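The genes described here were 7 cation channels of sensory neurons, the TRP channels Trpv1, Trpa1, Trpm8, Trpm3 and Trpv2 and the Piezo channels Piezo1 and Piezo2. They were chosen by name from the 31053 genes of the files, all 7 were found, and none of them served as a marker for naming cells. Single cells of the dorsal root ganglia (DRGs) L3 and L4 were captured in droplets from C57BL/6J male mice of 13 weeks, with 1 library from naïve, untreated mice, 1 library 7 days and 1 library 14 days after spared nerve injury on both sides (SNI day 7 and SNI day 14). Each library held the 8 ganglia of 2 mice, pooled, so that mice cannot be separated and no condition had a replicate. The naïve mice had no sham surgery. For the study's other experiments its methods list female mice that were younger, with the sciatic nerve ligated, and its text names the injury of the single cell libraries in one place as a partial ligation and in another as spared nerve injury, which is what the labels give. Every interval below is a 95% interval of counting error and covers neither mice nor libraries, and no test between conditions was possible.

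TRP and Piezo channels turn heat, cold, irritants and mechanical force into electrical signals at the endings of sensory neurons. Trpv1 opens to heat and capsaicin, Trpa1 to reactive irritants, Trpm8 to cooling and menthol, and Trpm3 to heat and certain steroids, while Piezo2 is the main channel of touch and body position and Piezo1 senses shear and stretch in vessels and blood cells. Trpv2 is related to Trpv1 in sequence, and its role in sensory neurons is less settled.

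The libraries held 3748, 3281 and 4908 barcodes (naïve, day 7 and day 14) with 23107376, 22343246 and 36550911 unique molecular identifiers (UMIs, 1 per captured mRNA molecule). After filtering, 3123, 2650 and 3799 cells remained, and each was assigned to a class from a list of marker genes. Neuron-like cells numbered 129, 186 and 145, and all 8 neuron markers were found in at least 20% of them in each library. Their depth differed between libraries, with a median of 63705 UMIs per cell in the naïve library, 2915 on day 7 and 80010 on day 14. On day 7, 116 of the 186 neuron-like cells had under 5000 UMIs, against 17 naïve and 19 day-14 cells. Levels are therefore given as CPM, the UMIs of a gene per 1000000 UMIs of all cells in a group, in which deep cells weigh more. Shares of cells are given as found and, where said, after each cell was thinned to a fixed number of UMIs.

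In mm10, Trpv1 (chr11:73234292-73261242) and Trpv2 (chr11:62574486-62600515) lie on the forward strand of chromosome 11, Trpa1 (chr1:14872648-14918862) and Trpm8 (chr1:88277661-88389293) on the reverse and forward strands of chromosome 1, Trpm3 (chr19:22139046-22995410) on the forward strand and Piezo1 (chr8:122481698-122551329) on the reverse strand. The 3′ end of Piezo1 overlaps Ctu2 on the opposite strand. Ctu2 had 24, 14 and 34 UMIs in the endothelial-like cells, where Piezo1 was highest, and 89, 66 and 109 UMIs in neuron-like cells. The 3′ end of Trpm3 overlaps a long noncoding RNA, C330002G04Rik, which had 4 UMIs in all cells, and an antisense RNA, Gm27151, with 105 UMIs in all cells, lies within Trpm3. Whether the counting used strand is not given in the sources used here, so reads of Piezo1 and Ctu2 may not be fully separated.

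Promoter windows of 300 bases (250 before and 50 after a start site) were found in RefSeq (GRCm38.p6) for 5 of the 7 genes. The windows of Trpv1, Piezo1 and the upstream Trpm3 start are printed because these genes had their highest level in neuron-like, endothelial-like and satellite glial cells, respectively, and because their windows differed in CpG content. CG dinucleotides are in capitals, and all sequences read 5′ to 3′ on the strand of the gene.
Trpv1, chr11:73233899-73234198, forward strand: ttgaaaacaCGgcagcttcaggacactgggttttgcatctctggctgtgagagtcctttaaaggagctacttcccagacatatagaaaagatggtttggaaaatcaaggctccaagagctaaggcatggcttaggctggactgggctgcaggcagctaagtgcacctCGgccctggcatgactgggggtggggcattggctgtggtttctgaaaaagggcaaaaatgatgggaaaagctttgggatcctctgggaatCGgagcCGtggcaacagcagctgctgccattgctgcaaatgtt
Piezo1, chr8:122551280-122551579, reverse strand: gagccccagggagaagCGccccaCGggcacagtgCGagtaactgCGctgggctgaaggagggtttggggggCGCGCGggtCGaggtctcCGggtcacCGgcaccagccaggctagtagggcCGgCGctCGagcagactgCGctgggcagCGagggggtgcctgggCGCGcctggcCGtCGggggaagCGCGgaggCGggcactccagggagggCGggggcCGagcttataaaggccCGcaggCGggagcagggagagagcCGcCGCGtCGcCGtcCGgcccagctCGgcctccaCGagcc
Trpm3, chr19:22138796-22139095, forward strand: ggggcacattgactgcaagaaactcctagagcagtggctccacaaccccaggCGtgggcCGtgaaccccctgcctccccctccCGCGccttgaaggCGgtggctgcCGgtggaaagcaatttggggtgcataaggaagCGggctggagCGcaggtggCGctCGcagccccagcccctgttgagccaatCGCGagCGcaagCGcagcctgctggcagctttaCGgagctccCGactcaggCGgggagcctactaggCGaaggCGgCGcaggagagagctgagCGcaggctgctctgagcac
The Trpv1 window held 4 CG dinucleotides, the Piezo1 window 34 and the printed Trpm3 window 21, against a median of 7 over all 32851 windows. The other Trpm3 window held 10. At least as many CG as in the Piezo1 window were found in 7.73% of windows. The AP-1 motif TGANTCA, searched on both strands, was in 0 of the 8 windows of these genes and in 7.81% of all windows, and the CRE motif TGACGTCA was in 0 of 8 and 1.79%. A missing match says only that these letters are not in these windows.

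The 7 genes divided by where their transcripts were found. Trpv1, Trpa1, Trpm8 and Piezo2 were mostly neuronal. Most Trpv2 UMIs also came from neuron-like cells, although its CPM was highest in mural-like cells. Trpm3 had its highest CPM in satellite glial cell (SGC)-like cells and Piezo1 in endothelial-like cells. Of all Trpv1 UMIs, 96.5% of 1062, 97.3% of 959 and 97.9% of 2890 came from neuron-like cells in the naïve, day-7 and day-14 libraries. For Trpa1 the same shares were 98.2%, 97.9% and 98.6%, and for Piezo2 they were 94.2%, 92.3% and 92.0%. For Trpv2 they were 86.5%, 73.2% and 78.7%, for Trpm3 13.1%, 15.3% and 22.0%, and for Piezo1 6.52%, 5.35% and 9.70%.

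**Figure D1:**
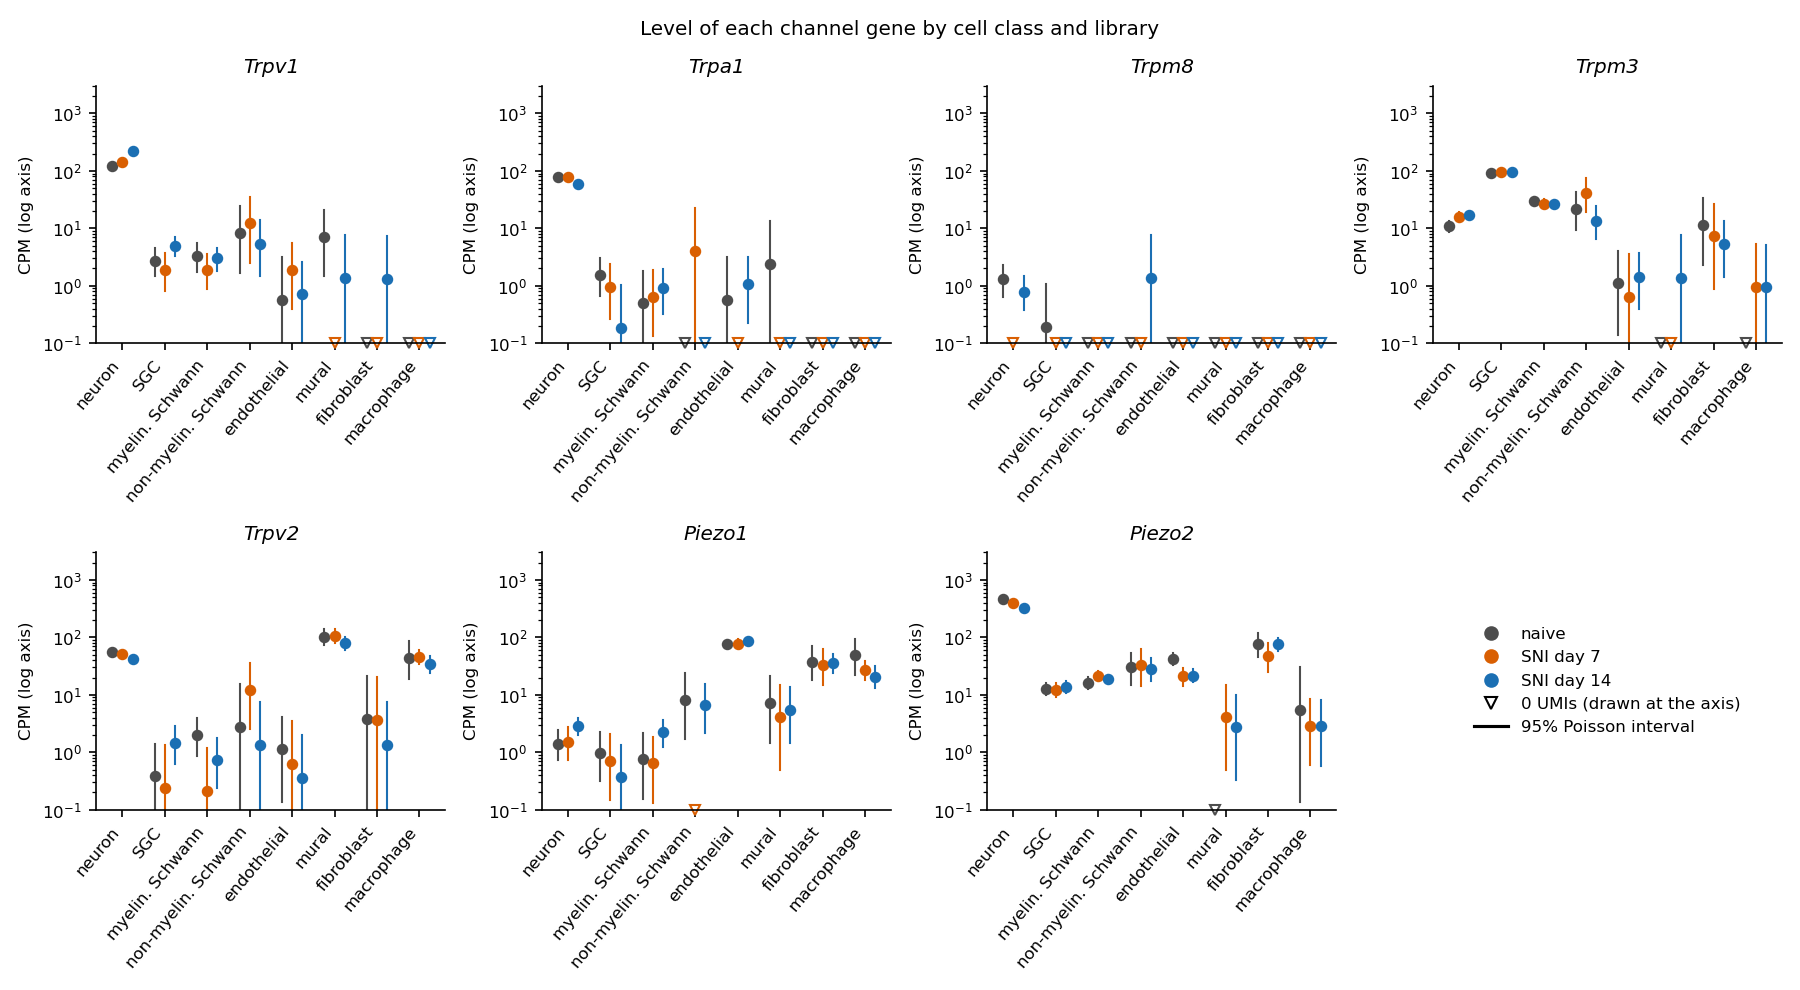
Level of each gene in CPM (log axis) in 8 cell classes, with 1 point per library and its 95% Poisson interval, and open triangles at the axis for 0 UMIs. Trpv1 and Trpa1 stood highest in neuron-like cells, Trpm3 in SGC-like cells at 90.1 to 97.2 CPM, and Piezo1 in endothelial-like cells at 76.6 to 87.5 CPM.

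Trpv1, the capsaicin receptor, was measured at 120.5 CPM (113 to 128) in naïve neuron-like cells, 142 CPM (133 to 152) on day 7 and 224 CPM (215 to 232) on day 14. Its next highest named class was non-myelinating Schwann-like cells, at 8.26, 12.2 and 5.39 CPM from 3, 3 and 4 UMIs. A Trpv1 UMI was found in 1.86%, 1.65% and 4.04% of SGC-like cells, at medians of 5358, 7173 and 7147 UMIs per cell, and in 0 of 70, 0 of 214 and 0 of 255 macrophage-like cells. A count of 0 allows a Trpv1 UMI in up to 4.29%, 1.40% and 1.18% of those macrophage-like cells, which limits cells with a UMI and not cells that express the gene. The irritant receptor Trpa1 was at 78.2 CPM (72.3 to 84.3), 78.3 CPM (71.7 to 85.3) and 60.2 CPM (56.0 to 64.6) in neuron-like cells, and 0 Trpa1 UMIs were found in fibroblast-like and macrophage-like cells of each library. SGC-like cells, which surround the neurons, held 8, 4 and 1 Trpa1 UMIs.

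Trpm8, the cold and menthol receptor, was rare. The naïve library held 11 UMIs in 2 neuron-like cells, 10 of them in a single cell, day 7 held 0 UMIs, and day 14 held 10 UMIs in 4 cells. On day 7 this allows up to 0.458 CPM, which is at least 2.83-fold lower than the naïve 1.29 CPM (0.646 to 2.31), with the floor of 3 counts taken over the group and the naïve value taken as measured. Without the naïve cell of 10 UMIs the naïve level was 0.118 CPM, below that floor, so the difference rested on 1 cell. Each of the 6 cells also held Trpv1 UMIs (4 to 73) and Trpv2 UMIs, and 5 of them were Tac1-type. The cells of 10 and 6 Trpm8 UMIs, the latter of no named type, held 4 and 6 Trpv1 UMIs. Those of 1 or 2 Trpm8 UMIs held 10 to 73. Of all Tac1-type cells with at least 20000 UMIs, 21 of 23 naïve and 42 of 43 day-14 cells held a Trpv1 UMI.

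Trpm3, a heat and steroid channel, was highest in the SGC-like cells, the glia that wrap neuronal cell bodies. Its level there was 90.1 CPM (82.0 to 98.7) in the naïve library, 97.2 CPM (88.0 to 107) on day 7 and 94.9 CPM (86.9 to 103) on day 14. The neuron-like cells of the same libraries held 10.8, 15.7 and 16.9 CPM, so that the SGC-like level was 8.33-fold (6.64 to 10.5), 6.18-fold (4.97 to 7.75) and 5.61-fold (4.78 to 6.61) higher. Myelinating Schwann-like cells came next at 29.5, 27.0 and 26.9 CPM, with an SGC-like level 3.06-fold, 3.60-fold and 3.52-fold above them. Non-myelinating Schwann-like cells, at 22.0, 40.5 and 13.5 CPM from 8 to 10 UMIs, had intervals that overlapped those of the myelinating ones.

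A Trpm3 UMI was found in 36.9% (33.4 to 40.4), 44.8% (40.3 to 49.4) and 46.0% (42.1 to 49.98) of SGC-like cells, but in 0 of 70, 1 of 214 and 1 of 255 macrophage-like cells, which have medians of 2220, 4349 and 3679 UMIs. When every cell was thinned to 2000 UMIs, the shares were 15.5% of 707, 16.9% of 477 and 16.6% of 626 SGC-like cells, after 47, 7 and 17 shallower cells were left out. In neuron-like cells the thinned shares were 2.49% of 117, 2.93% of 106 and 3.17% of 133. The order of glia over neurons thus held at equal depth.

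Within SGC-like cells, Trpm3 differed by the level of Fabp7, a fatty acid binding protein that marks these glia. The cells at or below the median Fabp7 level of all SGC-like cells held 135 CPM (119 to 153), 134 CPM (118 to 152) and 126 CPM (113 to 140) of Trpm3. Those above it held 64.8 CPM (56.3 to 74.0), 67.0 CPM (56.9 to 78.4) and 64.0 CPM (54.9 to 74.2). Piezo2 showed the other order in the naïve library, with 8.64 CPM (4.94 to 14.0) in the lower-Fabp7 cells and 15.2 CPM (11.3 to 20.04) in the others, although these intervals overlapped. The median depth of the lower-Fabp7 cells was less, 4317 against 6241 UMIs in the naïve library. At 2000 UMIs per cell, 20.8% of 294 lower-Fabp7 and 11.7% of 413 higher-Fabp7 naïve cells held a Trpm3 UMI, with 29 and 18 shallower cells left out.

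**Figure D2:**
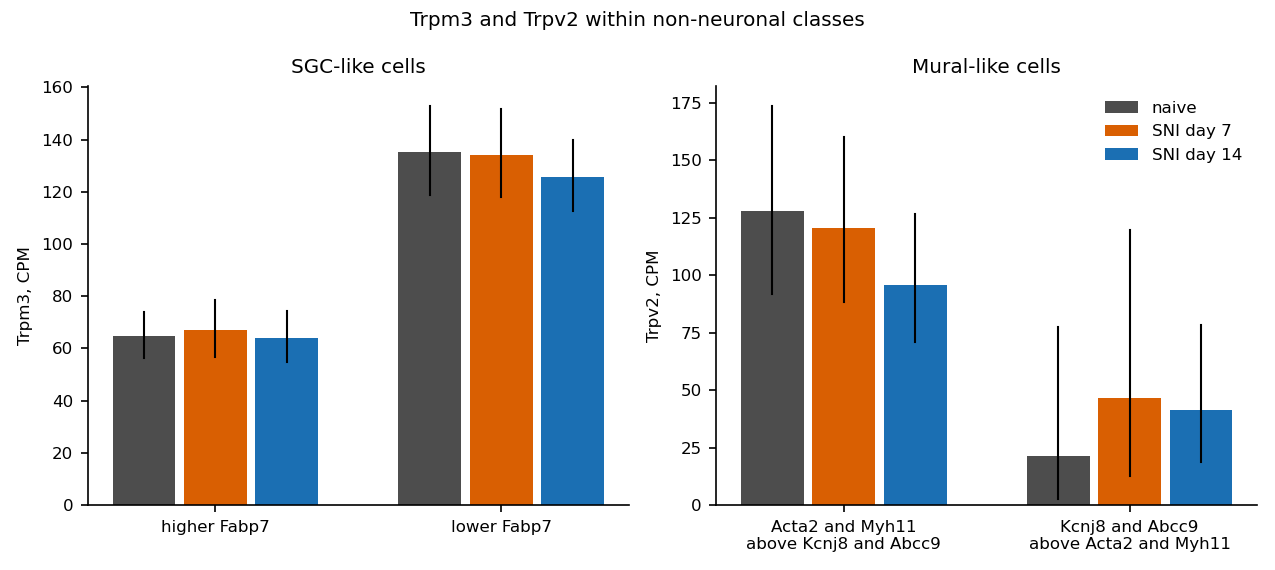
CPM of Trpm3 in SGC-like cells above and at or below the median Fabp7 level, and of Trpv2 in mural-like cells divided by their smooth muscle and pericyte genes, with 1 bar per library from 0 and lines for 95% Poisson intervals. Trpm3 was at 126 to 135 CPM in the lower-Fabp7 cells and at 64.0 to 67.0 CPM in the others.

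Trpv2 was highest in mural-like cells, the pericytes and smooth muscle cells of vessels, at 102 CPM (74.0 to 138), 105 CPM (78.2 to 138) and 78.6 CPM (59.7 to 102). This was 1.86-fold (1.33 to 2.55), 2.03-fold (1.48 to 2.73) and 1.89-fold (1.42 to 2.48) above the neuron-like cells, which held 54.9, 51.7 and 41.6 CPM. Macrophage-like cells, at 43.7, 46.0 and 34.7 CPM, did not differ from neuron-like cells beyond counting error. A Trpv2 UMI was found in 24.8%, 33.7% and 28.0% of mural-like cells, against 0.673%, 0.483% and 0.302% of endothelial-like cells, whose median depths were 3894, 4934 and 5881 UMIs against 3346, 4069 and 3505 in mural-like cells.

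The mural-like cells with more UMIs of Acta2 and Myh11, contractile genes of smooth muscle, than of Kcnj8 and Abcc9, channel genes of pericytes, held 128 CPM of Trpv2 (91.9 to 174) in the naïve library, 120 CPM (88.4 to 160) on day 7 and 95.9 CPM (70.9 to 127) on day 14. The opposite cells held 21.5, 46.7 and 41.2 CPM from 2, 4 and 9 UMIs. The intervals of the 2 kinds did not overlap in the naïve library (2.60 to 77.7 for the pericyte side) and overlapped on days 7 and 14. The pericyte side was also shallower, with a median of 1839 against 4351 UMIs per cell in the naïve library. This split, like that by Fabp7, was chosen after the levels of the classes were seen.

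Most Piezo1 UMIs, 73.4%, 65.8% and 65.2%, came from the cells that line vessels. Endothelial-like cells held 76.6 CPM (64.2 to 90.7), 77.8 CPM (64.7 to 92.9) and 87.5 CPM (76.8 to 99.2), which was 54.3-fold (30.1 to 108), 51.0-fold (26.8 to 109) and 30.8-fold (21.6 to 45.0) above neuron-like cells. Macrophage-like cells followed in the naïve library at 49.1 CPM (22.5 to 93.3) from 9 UMIs, which overlapped the endothelial interval, and were at 26.8 CPM (17.8 to 38.7) on day 7 and 20.6 CPM (12.9 to 31.2) on day 14. Fibroblast-like cells held 37.9, 32.6 and 35.8 CPM. A Piezo1 UMI was found in 35.4%, 40.6% and 42.9% of endothelial-like cells and in 0.663%, 0.620% and 0.311% of the deeper SGC-like cells.

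Piezo2, the touch channel, lies on chromosome 18 (chr18:63010213-63387183, reverse strand, mm10) and was found in most classes. Neuron-like cells held 468 CPM (454 to 483), 393 CPM (378 to 408) and 330 CPM (320 to 340). Fibroblast-like cells held 75.8 CPM (46.3 to 117), 47.1 CPM (25.1 to 80.5) and 75.7 CPM (57.3 to 98.0), and endothelial-like cells 42.6 CPM (33.5 to 53.4), 20.9 CPM (14.4 to 29.3) and 21.7 CPM (16.6 to 27.9). Myelinating Schwann-like cells held 16.1 to 21.3 CPM and SGC-like cells 12.1 to 13.9 CPM. Mural-like cells held 0, 2 and 2 UMIs in 125, 101 and 175 cells, whereas a Piezo2 UMI was found in 22.0%, 14.7% and 26.5% of fibroblast-like cells, at medians of 2639, 3362 and 3789 UMIs against 3346, 4069 and 3505 in mural-like cells. The cell groups that resembled lymphocytes, neutrophils or red blood cells had 4 to 34 cells per library and are not described.

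Among neurons, Trpv1 was highest in the peptidergic and itch types, Trpa1 in the Mrgprd-type, and Piezo2 in the Th-type, with Piezo2 also high in the Mrgprd-type and the few large Nefh-type cells. Neuron-like cells were divided into types by further markers, into the non-peptidergic Mrgprd-type (43, 88 and 27 cells), the peptidergic Tac1-type (32, 24 and 53), the Th-type of low-threshold C fibres (29, 8 and 13), the itch-type (7, 5 and 18) and the large Nefh-type (4, 9 and 8), while 14, 52 and 26 cells met no type. Tac1-type cells held Tac1, the substance P precursor, in 84.4%, 83.3% and 88.7% of cells. Itch-type cells held the itch peptide gene Nppb in 7 of 7, 4 of 5 and 17 of 18 cells, whereas Mrgpra3, another itch marker, had 0, 0 and 7 UMIs, so that this group was of the Nppb kind.

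**Figure D3:**
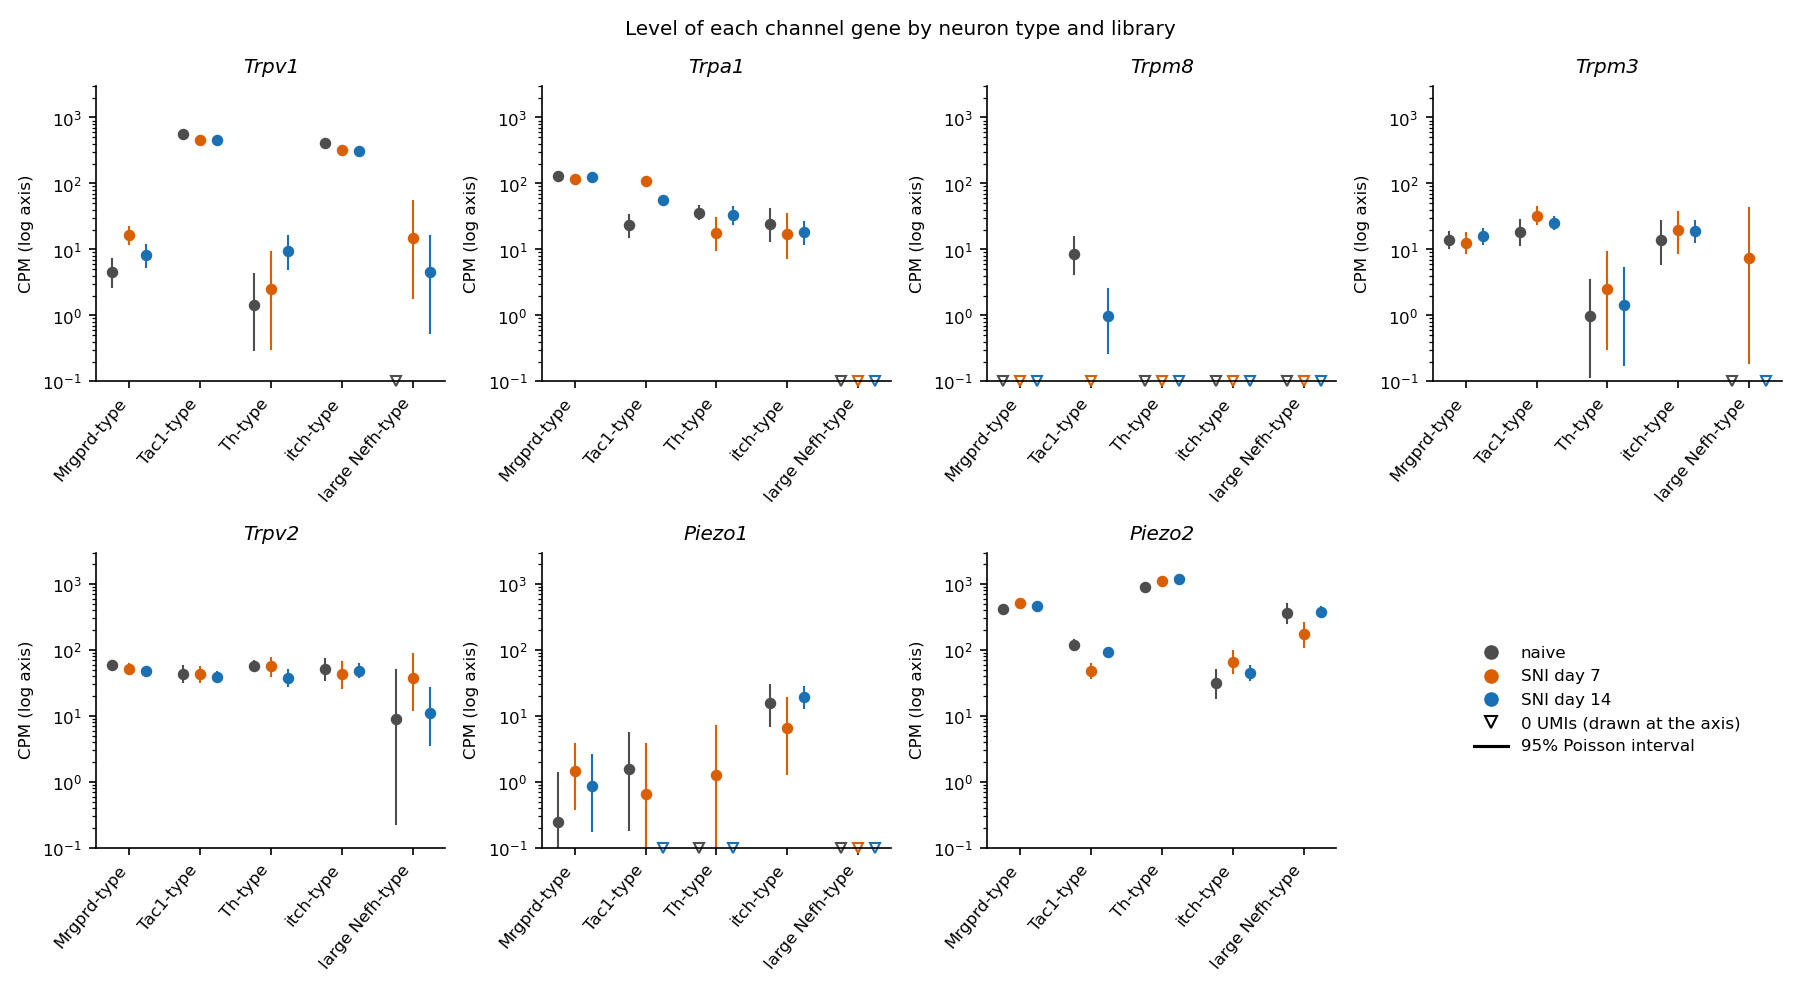
Level of each gene in CPM (log axis) in 5 neuron types, with 1 point per library, its 95% Poisson interval, and open triangles at the axis for 0 UMIs. Piezo2 was at 885 to 1179 CPM in Th-type neurons and Trpv1 at 461 to 570 CPM in Tac1-type neurons, whereas Trpv2 was at 37.6 to 59.3 CPM in the 4 types other than the large Nefh-type.

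Trpv1 was at 570 CPM (530 to 613) in naïve Tac1-type neurons, 463 CPM (430 to 499) on day 7 and 461 CPM (440 to 482) on day 14. Itch-type neurons followed at 407 CPM (356 to 462), 319 CPM (270 to 375) and 313 CPM (286 to 342). In both types the naïve library was the highest of the 3, although its itch-type interval overlapped that of day 7, and the day-7 and day-14 values did not differ beyond counting error. Thinned to 20000 UMIs, 34.8% of 96, 48.9% of 52 and 62.8% of 110 neuron-like cells of all types held a Trpv1 UMI, against 41.9%, 26.3% and 67.6% unthinned. Th-type neurons held 1.45, 2.56 and 9.41 CPM and Mrgprd-type neurons 4.49, 16.7 and 8.12 CPM.

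The few Trpv1 UMIs of Mrgprd-type neurons were unevenly spread. On day 7, 26 of their 46 Trpv1 UMIs came from 1 cell, and without the top cell of each library the level was 7.92 CPM against 3.82 CPM in the naïve library. That day-7 cell group also held 44 UMIs of Tmem100, a partner of Trpv1 and Trpa1 mostly found in Tac1-type neurons, all of them in 1 cell. Th-type neurons on day 14 were similar, with 10 of 13 Trpv1 UMIs in 1 cell. Without the top cell of each library the Th-type log2 ratio to naïve was 1.14 in place of 2.70.

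Trpa1 was highest in Mrgprd-type neurons, at 132 CPM (121 to 144), 118 CPM (105 to 131) and 124 CPM (112 to 136), and the 3 libraries did not differ beyond counting error. Thinned to 20000 UMIs, 88.7% of 35, 85.5% of 15 and 90.6% of 21 Mrgprd-type cells held a Trpa1 UMI, with 8, 73 and 6 shallower cells left out. The unthinned shares were 90.7%, 42.0% and 77.8%. Th-type neurons came next in the naïve library with 36.2 CPM (28.5 to 45.4), then itch-type neurons with 24.2 CPM (13.2 to 40.7) and Tac1-type neurons with 23.2 CPM (15.7 to 33.1), and the last 2 did not differ beyond counting error. The large Nefh-type held 0 Trpa1 UMIs in its 4, 9 and 8 cells.

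Trpm3 was at 18.6, 32.7 and 25.4 CPM in Tac1-type, 13.8, 19.4 and 18.9 CPM in itch-type and 14.0, 12.7 and 15.9 CPM in Mrgprd-type neurons. Th-type neurons held 0.965, 2.56 and 1.45 CPM from 2 UMIs in each library, below the intervals of the Tac1-type and Mrgprd-type in the naïve library. Trpv2 differed less across these types. In the naïve library it was at 59.3 CPM (52.0 to 67.4) in Mrgprd-type, 57.4 CPM (47.6 to 68.7) in Th-type, 51.9 CPM (35.0 to 74.1) in itch-type and 43.3 CPM (32.7 to 56.2) in Tac1-type neurons, and all neighbours in this order overlapped. From end to end, the Mrgprd-type level was 1.37-fold (1.02 to 1.87) above that of the Tac1-type. The few large Nefh-type cells held 9.1, 37.6 and 11.2 CPM of Trpv2 from 1, 5 and 5 UMIs.

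Piezo1, although low in neurons as a whole, was found in the itch-type. There it was at 15.6 CPM (7.12 to 29.6) in 5 of 7 naïve cells, 6.47 CPM (1.33 to 18.9) in 3 of 5 day-7 cells and 19.6 CPM (13.3 to 27.8) in 14 of 18 day-14 cells. These few cells held 9 of 12, 3 of 10 and 31 of 36 of all neuronal Piezo1 UMIs. In Mrgprd-type neurons 1, 4 and 3 Piezo1 UMIs were found, in Tac1-type neurons 2, 1 and 0, and in Th-type neurons 0, 1 and 0.

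Piezo2 ran from 885 CPM (845 to 927), 1109 CPM (1036 to 1185) and 1179 CPM (1122 to 1237) in the Th-type, C fibres that respond to light touch, through 425 CPM (405 to 446), 512 CPM (485 to 539) and 466 CPM (444 to 490) in the Mrgprd-type, to 119 CPM (101 to 139), 48.7 CPM (38.2 to 61.3) and 92.8 CPM (83.7 to 103) in the Tac1-type. The itch-type was lowest in the naïve library with 31.2 CPM (18.5 to 49.2) and held 66.8 and 45.5 CPM after injury. Large Nefh-type neurons, which include the touch receptors, held 362 CPM (259 to 493), 173 CPM (110 to 260) and 381 CPM (326 to 442) in few cells. Every Th-type cell of the 3 libraries, 29, 8 and 13, held a Piezo2 UMI.

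In single neurons of at least 20000 UMIs (96, 52 and 110 cells), a median of 3.5, 4 and 4 of the 7 genes was detected, and 0 such neurons lacked all 7. Trpv1 and Trpa1 were found together in 29 of 96, 19 of 52 and 51 of 110 neurons. Of the neurons with Trpv1, 61.7%, 57.6% and 58.6% also held Trpa1, which was in 70 of 96, 30 of 52 and 68 of 110 of all these neurons. The levels separated by type, with Trpa1 high where Trpv1 was at a few UMIs in Mrgprd-type neurons and Trpv1 high where Trpa1 was mostly absent in Tac1-type neurons. The deep Mrgprd-type neurons had a median of 121, 104 and 121 CPM of Trpa1 per cell and of 0, 5.67 and 4.49 CPM of Trpv1. In deep Tac1-type neurons the medians were 532, 425 and 388 CPM of Trpv1 and 0 CPM of Trpa1 in each library. Piezo1 was found with Trpv1 in 7 of 7, 6 of 7 and 16 of 19 of the neurons that held Piezo1. Trpv1 was in 47 of 96, 33 of 52 and 87 of 110 of all these deep neurons. The overlap was not particular to Trpv1. The neurons with Piezo1 held Trpv2 in 7 of 7, 7 of 7 and 19 of 19, and Piezo2 in 7 of 7, 7 of 7 and 16 of 19.

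**Figure D4:**
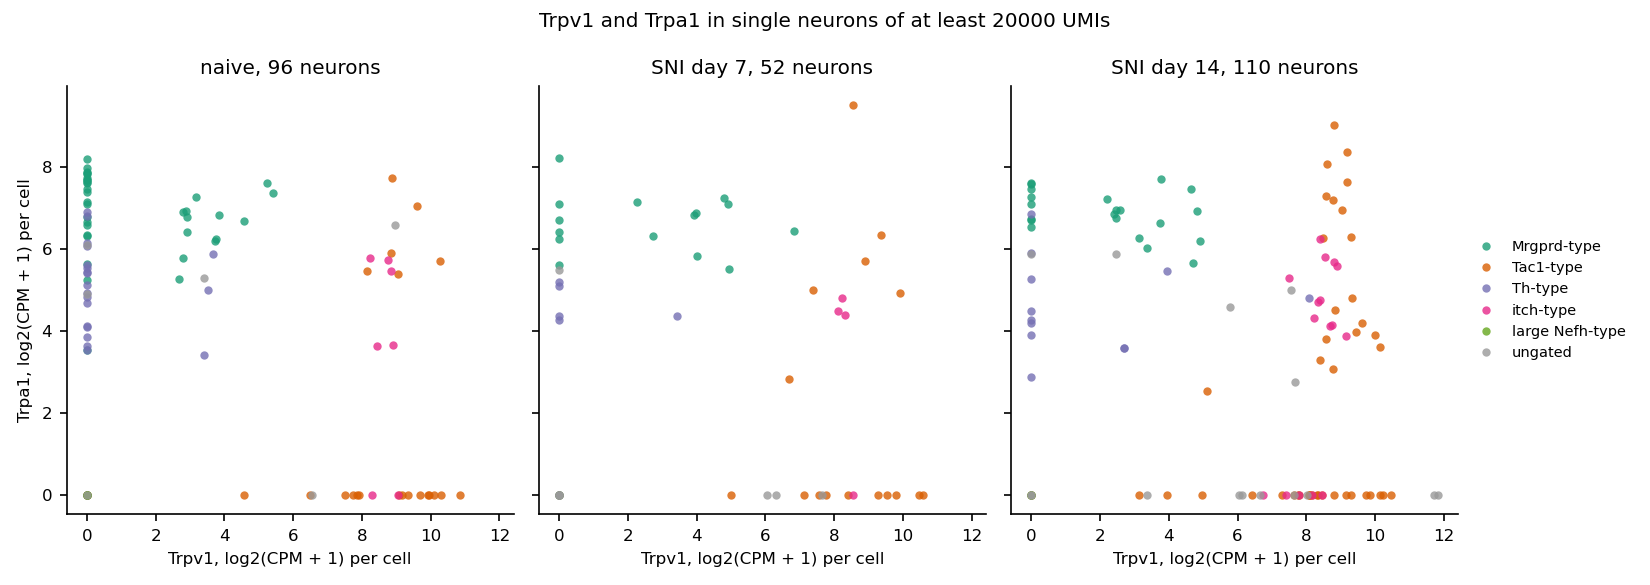
Trpv1 against Trpa1 as log2(CPM + 1) in each neuron-like cell of at least 20000 UMIs, coloured by neuron type, in 3 panels of 96 (naïve), 52 (day 7) and 110 (day 14) cells. Mrgprd-type cells lay high in Trpa1 at low or no Trpv1, and Tac1-type cells lay high in Trpv1, many of them with 0 Trpa1.

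Over all neuron-like cells, Trpv1 was higher and Piezo2 lower after injury. In the named neuron types that held most of their UMIs, both went the other way or did not differ. The cells that met no type held 521.3, 185.6 and 184.1 CPM of Piezo2, lower after injury as in the pool. Their Trpv1 was at 72.53, 44.51 and 242.4 CPM, with log2 ratios of -0.705 (-1.407 to 0.01) and 1.74. On day 14 they held 424 Trpv1 UMIs, 14.98% of the neuronal ones, and single cells held 151 and 142 of them. The part of these cells in the pooled ratios was not tested. The comparisons of day 7 and of day 14 share the naïve library. The neurons of the libraries also differed in their clusters. A first cluster was led by Sprr1a and held Atf3 among its leading genes, both known from injured neurons. It had 11 naïve, 133 day-7 and 45 day-14 cells. A cluster led by Th had 77, 34 and 68, above the 29, 8 and 13 Th-type cells, so that it held other neurons too. One led by Mrgprd had 43, 62 and 35. The cells of the neuron clusters had medians of 55695, 1963 and 78022 UMIs, and the part of depth in these counts was not tested. The clusters were made from all cells, and 147 of the 189 cells of the Sprr1a cluster were gated as neuron-like. The part of these differences in the ratios was not tested. On day 7, 0 of the 7 genes were at least 2-fold higher than in the naïve library (5.53% of the 13715 genes with at least 10 UMIs were) and 1 was at least 2-fold lower, Trpm8 (2.99% of genes), which rested on the 1 naïve cell named above. On day 14, 1 was at least 2-fold higher, Piezo1 (8.41% of 14296 genes), and 0 were at least 2-fold lower (2.22%). The median log2 ratio was 0.06 over 6 of the genes on day 7, without Trpm8 at 0 UMIs, and -0.38 over 7 on day 14, against 0.03 and 0.09 over all genes.

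The log2 ratio of Trpv1 was 0.24 (0.11 to 0.37) on day 7 and 0.89 (0.79 to 0.996) on day 14. With the mean over cells, in which shallow cells weigh as much as deep ones, the day-7 ratio turned to -0.71. The mix of neurons also differed between libraries. Tac1-type and itch-type neurons, where Trpv1 is high, made up 24.8% and 5.43% of naïve neuron-like cells, 12.9% and 2.69% on day 7, and 36.55% and 12.4% on day 14. Of the neuronal UMIs, on which the pooled level rests, they held 15.2% and 6.79%, then 22.9% and 7.08%, then 32.0% and 12.5%. With each type weighted by its share of the naïve UMIs, a step added after the data were seen, Trpv1 was at 103 CPM on day 7 and 110 CPM on day 14 against 120.5 CPM in the naïve library. In this step the cells that met no type counted as a further type, and types of under 10 cells were kept.

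For Piezo2 the log2 ratio was -0.25 (-0.33 to -0.18) on day 7 and -0.50 (-0.57 to -0.44) on day 14. Th-type neurons, where Piezo2 is highest, made up 22.5% of the captured neuron-like cells in the naïve library, 4.30% on day 7 and 8.97% on day 14. Of the neuronal UMIs, they held 24.4%, 11.9% and 10.9%. With types weighted as in the naïve library, Piezo2 was at 535 and 539 CPM against 468 CPM, which is higher and not lower than naïve. The day-7 value rests in part on the 8 Th-type cells, of which 1 held 26.7% of their Piezo2 UMIs. For both genes this weighting turned the direction, and whether the types differed through capture or injury cannot be told apart. Trpa1, at a log2 ratio of 0.00 (-0.17 to 0.17) on day 7 and -0.38 (-0.53 to -0.22) on day 14, was at 77.6 and 77.3 CPM against 78.2 CPM when weighted in this way. The day-7 values rested in part on 1 Tac1-type cell with 130 of the 513 neuronal Trpa1 UMIs, which the weighted value also holds. Without the top cell of each library the unweighted levels were 74.8 CPM naïve and 60.1 CPM on day 7. That is a log2 ratio of -0.32, outside the interval given.

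Trpm3 in neuron-like cells had a log2 ratio of 0.54 (0.12 to 0.96) on day 7 and 0.64 (0.28 to 1.01) on day 14, and with naïve type weights it was at 13.4 and 13.7 CPM against 10.8 CPM. With the mean over cells its day-7 ratio turned to -0.43, as did that of Trpv2 on day 14, to 0.07. In the SGC-like cells, where most Trpm3 UMIs lay, the Trpm3 ratios were 0.11 (-0.08 to 0.30) and 0.07 (-0.11 to 0.26). Trpv2 had ratios of -0.09 (-0.29 to 0.12) and -0.40 (-0.58 to -0.22) in neuron-like cells and of 0.04 (-0.57 to 0.66) and -0.38 (-0.97 to 0.22) in mural-like cells. Piezo1 in neuron-like cells had 12, 10 and 36 UMIs and ratios of 0.11 (-1.26 to 1.45) and 1.01 (0.04 to 2.09). Itch-type cells, with 9, 3 and 31 of these UMIs, numbered 7, 5 and 18, and with naïve type weights Piezo1 was at 1.80 CPM on day 14 against 1.41 CPM.

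**Figure D5:**
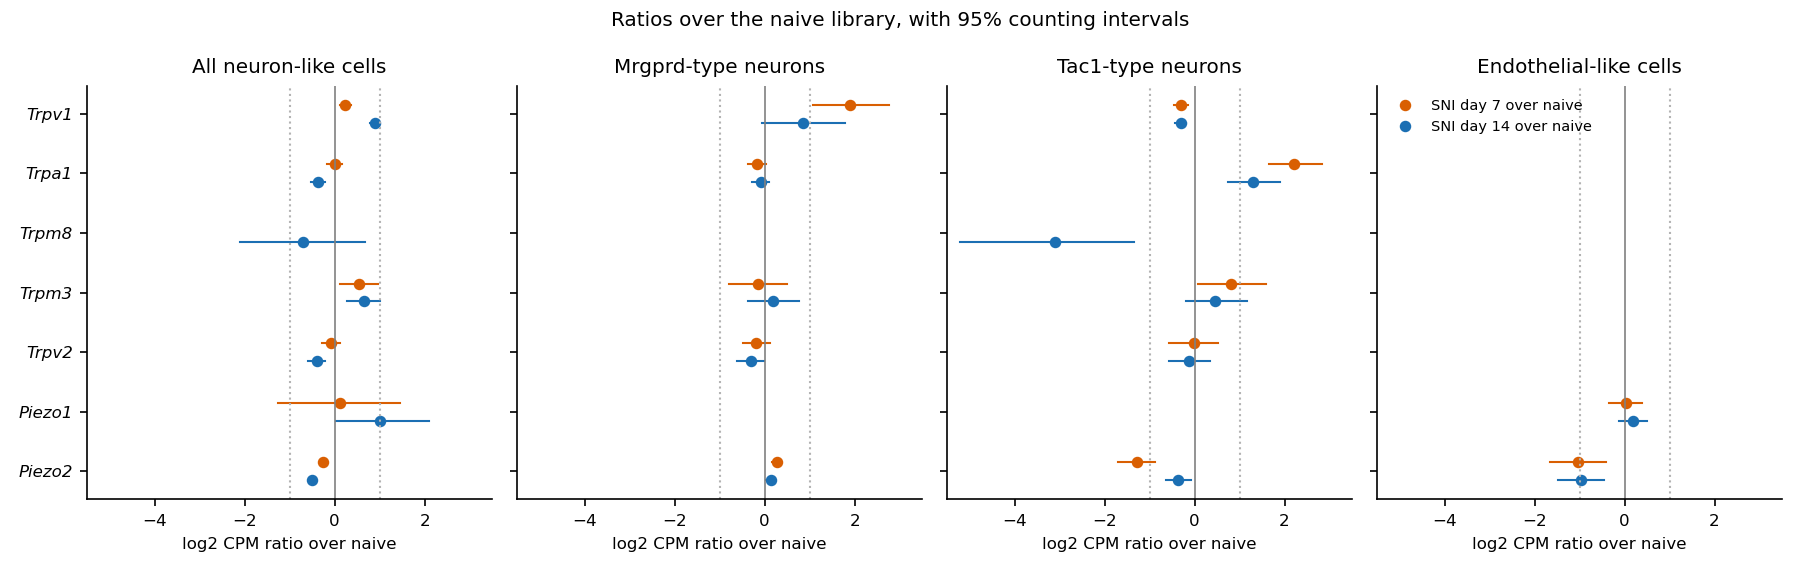
Log2 CPM ratio over the naïve library of each gene with at least 10 UMIs in the pair of libraries, in all neuron-like, Mrgprd-type, Tac1-type and endothelial-like cells, with lines for 95% counting intervals and dotted lines at 2-fold. Trpv1 lay at 0.89 in all neurons and at -0.31 in Tac1-type neurons on day 14, and Piezo2 lay at -1.03 and -0.97 in endothelial-like cells, while Trpm8 on day 7 had 0 UMIs and no ratio.

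Within Tac1-type neurons, 6 of the 7 genes had at least 10 UMIs in the pair. On day 7, 1 of the 6, Trpa1, was at least 2-fold higher (4.92% of genes) and 2, Trpm8 and Piezo2, were at least 2-fold lower (5.6%). On day 14, 1 was higher, Trpa1 (5.87%), and 1 lower, Trpm8 (3.68%). Trpm8 had 11, 0 and 4 UMIs there, 10 of the 11 in 1 cell, and without the top cells its day-14 ratio was -0.67 in place of -3.11. Trpv1 itself had ratios of -0.30 (-0.45 to -0.15) and -0.31 (-0.43 to -0.18), each the reverse of its ratio in pooled neurons.

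The Trpa1 difference in Tac1-type neurons rested on 1 cell on day 7, and on day 14 most of the Trpa1 UMIs also lay in few cells. Its levels were 23.2, 107 and 57.0 CPM, with log2 ratios of 2.21 (1.64 to 2.83) and 1.30 (0.75 to 1.90). On day 7, 130 of the 161 UMIs were in 1 cell, and without the top cell of each library the levels were 15.7 and 23.5 CPM, a log2 ratio of 0.58. On day 14, 68 of 231 UMIs were in 1 cell, and without the top cells the ratio was 1.41, with 41.6 CPM. Among cells of at least 20000 UMIs, the top 3 held 72.4%, 95.5% and 64.9% of the Trpa1 UMIs. The median of these cells was 0 CPM in each library, with upper quartiles of 20.4, 30.1 and 19.6 CPM. At 20000 UMIs per cell, 21.2% of 23, 22.5% of 16 and 26.0% of 43 Tac1-type cells held a Trpa1 UMI, with 9, 8 and 10 shallower cells left out, and unthinned, 6 of 23, 6 of 16 and 19 of 43 of these cells did. Piezo2 in this type had ratios of -1.29 (-1.71 to -0.88) and -0.36 (-0.63 to -0.08), and without the top cells of 70, 18 and 106 UMIs they were -0.88 and -0.04. Its UMIs also lay in few cells, and the top 3 deep cells held 77.2%, 82.1% and 53.4% of them. Per deep cell the Piezo2 median was 0, 8.86 and 13.9 CPM, the other direction, with upper quartiles of 82.7, 39.4 and 57.8 CPM. At 20000 UMIs per cell, 37.5%, 33.1% and 39.2% of Tac1-type cells held a Piezo2 UMI.

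In Mrgprd-type neurons, 5 genes had at least 10 UMIs in the pair. On day 7, 1 of them, Trpv1, was at least 2-fold higher (4.16% of genes), with the cell of 26 UMIs named above, and 0 were at least 2-fold lower (2.79%). On day 14 there were 0 in either direction (3.59% and 3.03%). In this type Piezo2 was higher, with ratios of 0.27 (0.16 to 0.37) and 0.13 (0.03 to 0.23), and its median per deep cell was 414, 482 and 445 CPM. In Th-type neurons, Piezo2 had a ratio of 0.41 (0.32 to 0.51) on day 14.

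In endothelial-like cells, 2 of the genes had at least 10 UMIs, Piezo1 and Piezo2. On day 7, 1 of the 2, Piezo2, was at least 2-fold lower (2.93% of genes), and on day 14, 0 were (2.33%). The level of Piezo2 was 42.6 CPM in 56 of 297 naïve cells, 20.9 CPM in 22 of 207 day-7 cells and 21.7 CPM in 45 of 331 day-14 cells, and the naïve interval lay above both others. The log2 ratios were -1.03 (-1.66 to -0.42) and -0.97 (-1.49 to -0.46), and -1.12 and -0.97 without the top cell of each library. Thinned to 2000 UMIs, 8.33% of 235, 3.74% of 186 and 4.53% of 298 cells held a UMI, with 62, 21 and 33 left out. Piezo1 in the same cells had ratios of 0.02 (-0.34 to 0.39) and 0.19 (-0.12 to 0.51). In fibroblast-like cells, the Piezo2 ratios were -0.69 (-1.82 to 0.39) and -0.00 (-0.76 to 0.81).

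Neurons with and without an Atf3 UMI, a transcription factor induced by axon injury, were compared in cells of at least 5000 UMIs. An Atf3 UMI was found in 26 of 112 naïve, 35 of 70 day-7 and 63 of 126 day-14 neurons. Cells with Atf3 were deeper, with medians of 94510, 97151 and 104629 UMIs against 52834, 55978 and 77625, and differed in type. Among them were 1 of 29, 5 of 18 and 20 of 49 Tac1-type cells and 7 of 40, 7 of 25 and 6 of 23 Mrgprd-type cells. They also held 10 of 27, 7 of 8 and 7 of 12 Th-type cells and 5 of 7, 4 of 4 and 13 of 16 itch-type cells. Trpv1 was 1.90-fold lower in the naïve Atf3 cells (log2 -0.93, -1.16 to -0.70), 3.21-fold lower on day 7 (-1.68, -1.90 to -1.48) and 1.44-fold lower on day 14 (-0.52, -0.63 to -0.41). Trpa1 was 1.78-fold, 3.40-fold and 1.71-fold lower. The part of depth and type in these differences was not tested. Piezo1 went the other way in the naïve library, with 11 of 12 UMIs in Atf3 cells (4.07 against 0.173 CPM, log2 4.56, 1.77 to 9.98), and its intervals held 0 on days 7 and 14 (log2 0.95 and 1.05). Trpv2 and Trpm3 differed in no library beyond counting error, with log2 ratios of -0.11, 0.22 and 0.07 for Trpv2 and of -0.41, -0.45 and -0.33 for Trpm3, and Piezo2 was at 0.19 and 0.28 in the naïve and day-7 libraries and at -0.44 on day 14.

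Other channels and partners were listed to set beside these genes. Of 23 other TRP channels, 13 had at least 10 UMIs in neuron-like cells on day 7 and the naïve library, of which 2 were at least 2-fold higher and 0 lower, against 5.53% and 2.99% of all genes. On day 14, 3 of 14 were higher and 0 lower, against 8.41% and 2.22%. Trpm6, a magnesium channel, was at 1.41, 3.97 and 3.16 CPM, and the endolysosomal channel Mcoln2 at 0.823, 2.90 and 2.69 CPM. Among those with most UMIs were Trpm7, a channel with a kinase domain, at 39.7, 51.9 and 45.8 CPM, and Trpc1 at 27.5, 39.7 and 40.1 CPM.

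Of 16 other mechano- or thermosensitive channels, 13 could be compared at each time, with 1 higher and 1 lower on day 7 (5.53% and 2.99% of all genes) and 4 higher and 0 lower on day 14 (8.41% and 2.22%). Ano1, a calcium-activated chloride channel opened by heat, had 1, 19 and 19 UMIs in neuron-like cells, in 1, 9 and 9 cells. The most abundant were the acid-sensing channel Asic2 at 243, 204 and 170 CPM, Tmem63b at 153, 130 and 140 CPM, and Tmem150c at 69.2, 66.2 and 67.5 CPM. Of 16 partners and sensitising receptors, 13 and 14 could be compared, with 4 and 6 higher (5.53% and 8.41% of all genes) and 0 lower (2.99% and 2.22%).

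Tmem100, an adaptor between Trpa1 and Trpv1, was at 29.7 CPM (26.2 to 33.6), 61.03 CPM (55.2 to 67.3) and 73.6 CPM (69.0 to 78.5) in all neuron-like cells. Within Tac1-type neurons it was at 169 CPM (147 to 192), 208 CPM (186 to 233) and 185 CPM (172 to 199), a smaller spread, as for Trpv1. The histamine receptor Hrh1 had 7, 13 and 85 UMIs in 4, 4 and 26 cells, and the protease receptor F2rl1 had 5, 12 and 34 UMIs in 3, 6 and 12 cells. Among the most abundant partners were Pirt, a regulator of Trpv1 and Trpm8, at 586, 662 and 650 CPM, and the neurotrophin receptor Ngfr at 116, 97.2 and 202 CPM.

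The genes most like each channel gene were taken by the correlation of log2(CPM + 1) over 31 groups of cells, each a class or neuron type in a library with at least 20 cells, among 14904 genes with at least 50 UMIs. Trpv1 was most like Kcnk10 (Pearson r = 0.89), Adgra1 (0.89) and Hmx1 (0.88). Kcnk10, a potassium channel of the thermosensitive list, was at 23.2, 18.7 and 31.6 CPM in Tac1-type neurons. Trpa1 was most like Pgam1, Tmem179 and Dlgap3 (each 0.94), Trpm3 like Nav3 (0.92), Scd2 (0.92) and Cnksr2 (0.90), and Trpv2 like Atp2b1 (0.90), Dock11 (0.86) and Fam107b (0.83). Piezo1 was most like Clec2d (0.91), Icam1 (0.89) and Gbp9 (0.88), and Piezo2 like Plagl1 (0.85), Magi3 (0.84) and Ano3 (0.84). Groups of 1 library share that library and its depth, so the values are descriptions. Trpm8, with 23 UMIs in all, was too low for this step.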

How the data were processed

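The authors deposited raw UMI counts per gene and cell for 3 libraries, limited to barcodes already called as cells and without normalization. The submitters' processing notes name Cell Ranger 3.0.2 and mm10, and the annotation version and strand setting are not given in the sources used here. Counts of 9572 cells were used, with at least 500 genes, at most 20% mitochondrial UMIs and without 90 Scrublet doublets (0.931% of 9662). Of these cells, 14 shared a barcode sequence with another library. Each cell was given the class whose markers had the highest mean score, at 0.2 or more and 0.05 above the next, with thresholds set after the data were seen. Neuron types were set likewise. UMIs were pooled per group as CPM, with exact Poisson, Clopper-Pearson or conditional binomial intervals at 95%, covering counting error only. A ratio of at least 2-fold among genes with at least 10 UMIs was counted. With 1 library per condition no p-value was computed. Ratios were tested on simulated data with known folds. Of 31053 gene IDs, 30934 were found in GENCODE vM21. Named genes were the 7 channel genes and, of 3 lists, those with at least 10 UMIs in each of 2 libraries and at least 2-fold changed in the same direction at both times and the 3 with most UMIs, with the 3 likest genes of each member. Some genes that this rule names are not reported here. The members and lists were chosen with earlier results of these data known. Alternatives covered cell filter, doublets, Leiden clusters (scanpy 1.11.5, leidenalg 0.10.2), score threshold, depth, weighting of cells, top cells and scaling.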

Additional observations from a re-analysis of the deposited data

Results flagged for a closer look

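The following results differed in direction between cell groups of the same comparison, with counting intervals on opposite sides of 0. The differences were not tested, since each condition is 1 library. For Trpv1, the log2 ratio over naïve was 1.90 in Mrgprd-type and -0.30 in Tac1-type neurons on day 7, and 2.70 in Th-type and -0.31 in Tac1-type neurons on day 14. Without the top cell of each library the Mrgprd-type and Th-type values were 1.05 and 1.14. For Trpa1 on day 14, the ratio was 1.30 in Tac1-type neurons and -3.09 in SGC-like cells, the latter from 8 and 1 UMIs. For Piezo2 on day 7, it was 0.27 in Mrgprd-type neurons, -1.03 in endothelial-like cells and -1.29 in Tac1-type neurons. For Piezo2 on day 14, it was 0.13 in Mrgprd-type and 0.41 in Th-type neurons, and -0.97 in endothelial-like cells and -0.36 in Tac1-type neurons. Without the top cells, the Tac1-type values of Piezo2 were -0.88 on day 7 and -0.04 on day 14.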

How the results depend on the processing

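No paired analysis was possible because a condition is a single library, and for the same reason none could be left out. Of the genes at least 2-fold changed in neuron-like cells, the count of those lower on day 7 was 1 and became 0 with the stricter cell filter. The count of those higher on day 7 was 0 and became 1 with the mean over cells, where Piezo1 had a log2 ratio of 2.20. The count of those higher on day 14 was 1, 0 with the stricter filter, 2 without the top cell of each library and 0 with types weighted as in the naïve library. The count of those lower on day 14 was 0 and became 1 with that weighting, which was added after the data were seen. The causes were not tested. The counts were the same without a cell filter, with doublets kept, with Leiden clusters, with a neuron score of 0.3, in neurons of at least 5000 UMIs and with another scaling. With the mean over cells the ratio of Trpm3 on day 7 was -0.43 and that of Trpv2 on day 14 was 0.07, both of the opposite direction. On day 7 the log2 ratio of Trpv1 ran from -0.71 (mean over cells, in which the 116 shallow neurons weigh as much as deep ones) to 0.61, and on day 14 from -0.13 (naïve type weights) to 0.98. Piezo2 ran from -0.76 to 0.19 and from -0.68 to 0.20, with the highest value from the type weights. For Trpa1 the day-7 ratio was 0.00 and ran from -0.32 (without the top cells) to 0.29 (mean over cells). The ratio of Trpm8 on day 14 was 1.42 without the top cells and -0.71 with them. Depth limits Trpm8, neuronal Piezo1 and the types of under 10 cells.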
